A study of Mus musculus with 10 samples.

Results

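The CD4 and CD8 lineage genes are here the 7 genes Cd4, Cd8a, Cd8b1, Zbtb7b, Tox, Runx1 and Bcl11b, found by matching the table's Ensembl IDs to these symbols, 7 of 49671 genes in all. They were measured by RNA sequencing in cultures of mouse TH2 cells, the helper T cells of allergic and anti-parasite responses. All mice were wild-type C57BL/6, and their naive CD4+ T cells were polarised towards TH2 and harvested on day 5. The deficient group (7 libraries) came from mice bred without ultraviolet light on a diet with no vitamin D metabolites, and the control group (3 libraries) from mice kept in the same way but given 400 IU of vitamin D3 in each kg of food, both as second-generation offspring. Batch 1 held 5 deficient and 2 control libraries, and batch 2 held 2 deficient and 1 control library. Whether each library is a separate mouse, the sex and age of the mice, and how and how purely the naive cells were isolated are not stated, so the spread behind the p-values may be technical.

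A mature T cell carries either CD4, which binds MHC class II, or CD8, which binds MHC class I, and each brings the kinase Lck to the T cell receptor. The choice is made in the thymus. The transcription factor ThPOK, encoded by Zbtb7b, fixes the CD4 fate and keeps CD8 genes silent, while Runx proteins repress Cd4 and Zbtb7b in cells that take the CD8 fate. TOX is needed for CD4 T cells to form, and BCL11B for the commitment and identity of all T cells. A TH2 culture started from naive CD4+ cells is thus a setting in which Cd4 and Zbtb7b are normally on and the CD8 genes off.

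Libraries held 7029207 to 13433276 counts in the deficient group and 5800698 to 6462146 counts in the control group. Deficient libraries 5, 6 and 7 stood apart from the other deficient libraries in the CD8 genes, although library 5 belongs to batch 1. The members' fold changes, most list counts and some levels below are also given without them. As these libraries were set apart by their own CD8 levels, leaving them out narrows the spread of genes that follow those levels by construction. The list counts without them are thus a description and not a test. In the fit without them 56.4% of the 13066 genes tested were called, 3723 higher and 3648 lower. CPM here is the count divided by the library's total and multiplied by 1000000. Xist, expressed from an inactive X chromosome, read 657 and 733 CPM in deficient libraries 1 and 3, and no other library exceeded 0.345 CPM. The TH2 label was read from a list of 9 markers, whose summed level was 343 to 466 CPM in deficient libraries and 385 to 434 CPM in control libraries, with Gata3, Il4, Il5 and Il13 present in every library and Ptgdr2 at 0.16 CPM or less. Its genes went both ways: of 8 tested 2 rose, 4 fell and 2 did not pass (edgeR). That is 75.0% called, against 58.0% of all genes tested. The log2 fold changes were 1.21 for Il13 and 0.84 for Il5, which rose. They were -3.09 for Il1rl1, -1.11 for Ccr8, -1.07 for Ccr4 and -0.84 for Gata3, which fell. Without deficient libraries 5 to 7, 1 gene rose and 4 fell, 62.5% called against 56.4% of all genes tested in that fit.

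Cd4 fell and both CD8 chains rose in the deficient cultures. Of the 4 transcription factor genes, Tox and Bcl11b fell, Tox at a low level and Bcl11b by little, and Zbtb7b and Runx1 did not pass the test. All 7 genes passed the filter on low counts. At a Benjamini-Hochberg adjusted p below 0.05 over all genes tested (edgeR's quasi-likelihood test with diet and batch as terms), 2 rose, 3 fell and 2 did not pass. That is 5 of 7 called, against 58.0% of the 13699 genes tested, with 29.4% of all genes higher and 28.6% lower. In 4 of the 7 the CPM of the diets did not overlap, 3 with all deficient libraries above and 1 with all below, against 50.8% of all genes tested, 29.4% above and 21.4% below. The members' median log2 fold change (deficient minus control) was -0.18, against 0.02 over all genes tested. With calls this common, the size of each difference and its spread over libraries say more than the call.

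**Figure D1:**
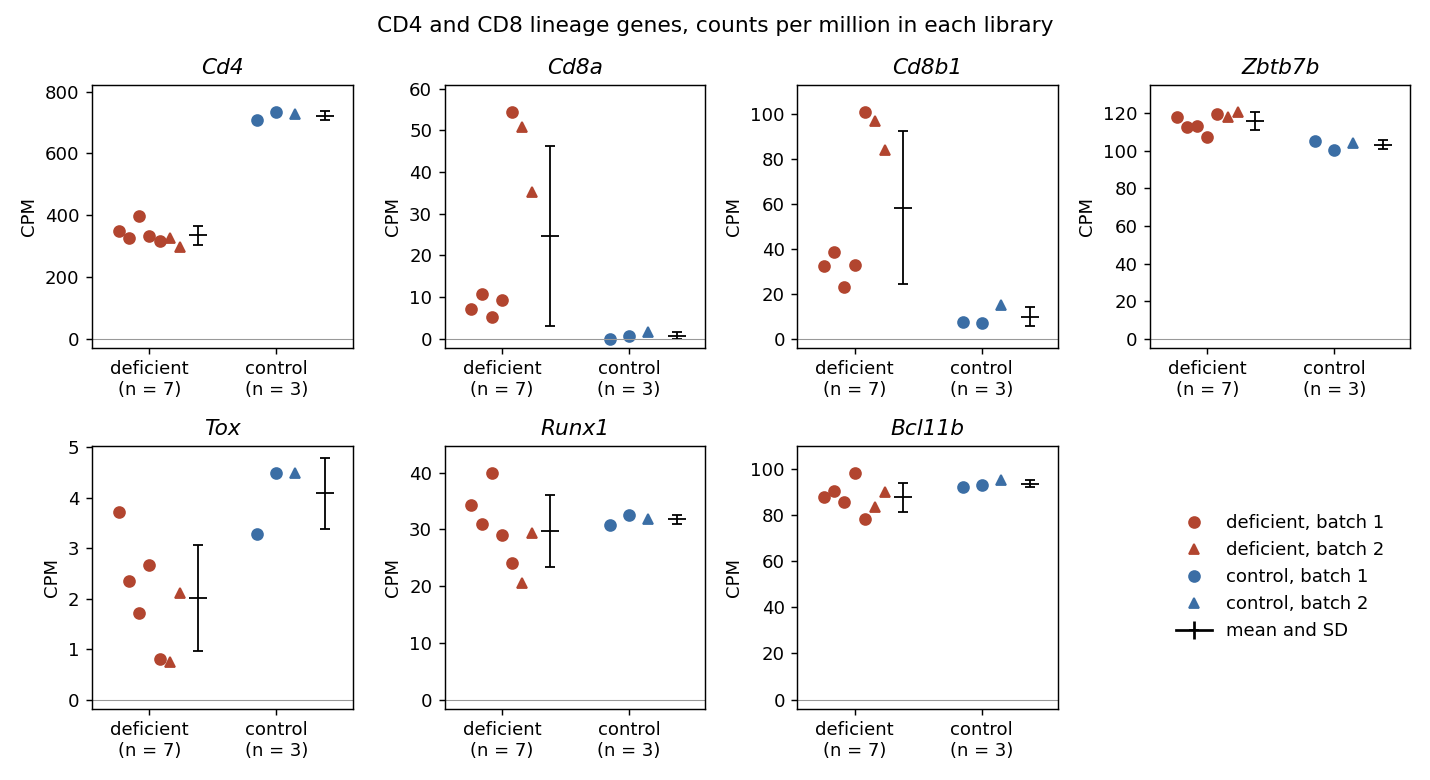
CPM of the 7 genes in each library (vertical axes from 0), with deficient libraries 1 to 7 from left to right in red and control libraries in blue, circles for batch 1 and triangles for batch 2, and the mean and SD beside each group (the lower arm ends at 0 where the SD exceeds the mean). Cd4 lies between 298 and 396 CPM in deficient and between 707 and 734 CPM in control libraries; Cd8a and Cd8b1 are highest in deficient libraries 5, 6 and 7.

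Cd4 (ENSMUSG00000023274, chromosome 6, 124864692 to 124888221 on the minus strand of GRCm38) encodes the co-receptor that defines helper T cells. It read 348, 328, 396, 331, 316, 327 and 298 CPM in deficient libraries 1 to 7, against 707, 734 and 727 CPM in the controls. Each deficient library lay below every control, and the highest deficient value, in library 3, was still far from the lowest control. The means were 335 ± 30.9 CPM (SD, n = 7) and 723 ± 13.8 CPM (SD, n = 3). On the log2 scale Cd4 differed by -1.20 (deficient minus control, SE 0.0671, adjusted p = 1.28e-09, edgeR), a level 2.30-fold lower in deficient cells, and it was -1.16 within batch 1 and -1.27 within batch 2. Over all 23 alternatives it stayed between -1.27 and -1.09, and Cd4 passed in each; without deficient libraries 5 to 7 it was -1.13. In these bulk cultures fewer CD4+ cells and less Cd4 RNA per cell cannot be told apart.

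Genes of the T cell receptor complex and other surface and signalling genes common to all T cells were measured beside Cd4 as a list of 16. All 16 were tested: 8 fell, 2 rose and 6 did not pass, with a median log2 fold change of -0.20. That is 62.5% called, near the 58.0% of all genes tested, and the counts were the same without deficient libraries 5 to 7. Cd4 had a more negative fold change than any of the 16, and 6.42% of all genes tested had a more negative one. Nearest to it was Cd3e, a signalling chain of the receptor complex, at 27.9 ± 2.93 CPM in deficient and 53.8 ± 3.34 CPM in control cells (log2 -1.04, SE 0.0956). The adhesion receptor gene Cd2 fell by 0.98 and the co-stimulatory receptor gene Cd28 by 0.92 on the log2 scale. Trac, the constant region of the receptor's alpha chain, read 236 ± 9.59 CPM against 312 ± 1.98 CPM (log2 -0.49). The summed level of the list was 4227 to 4460 CPM in deficient and 4563 to 4667 CPM in control libraries.

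Cd8a (ENSMUSG00000053977, chromosome 6, 71373427 to 71379173 on the plus strand) encodes the alpha chain of CD8, which pairs with itself or with the beta chain and binds Lck. It was lowest at 5.26 CPM, median at 10.8 CPM and highest at 54.3 CPM over the deficient libraries, against 0, 0.641 and 1.55 CPM in the controls. These control values rest on 0, 4 and 10 reads, and a count of 0 in control library 1 allows up to 0.517 CPM (3 counts, counting error only). All deficient libraries lay above all controls, and libraries 5, 6 and 7 (54.3, 50.8 and 35.3 CPM) lay far above the others (5.26 to 10.8 CPM). The means were 24.7 ± 21.6 CPM (SD, n = 7) and 0.730 ± 0.778 CPM (SD, n = 3). The fitted difference of Cd8a was 5.06 on the log2 scale (SE 1.45, adjusted p = 0.0191, edgeR), and Cd8a passed the low-count filter through the deficient libraries alone.

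Whether Cd8a passed depended on the setting, while its log2 fold change ran from 4.50 to 5.59 over the alternatives. Cd8a did not pass without control library 1 (4.72, adjusted p = 0.0601), control library 2 (5.21, adjusted p = 0.0587) or control library 3 (5.59, adjusted p = 0.0857), within batch 1 (5.58, adjusted p = 0.102) or with limma-voom (5.00, adjusted p = 0.133). Within batch 2 it was 4.75, but that batch holds 1 control library, and its deficient libraries, 6 and 7, were both high for Cd8a. With deficient libraries 1 to 4 alone, a fit added once the values were known, it was 4.50; as libraries 5 to 7 were left out for their own CD8 levels, which narrows the spread by construction, no p is given. DESeq2 gave 5.29 with no adjusted p. Without deficient library 5 the log2 fold change of Cd8a was 4.67. Batch then separated deficient libraries 1 to 4 from 6 and 7, so the batch term took up their spread by construction. No p is given for that fit. Over the other alternatives, batch 2 alone left aside, the adjusted p of Cd8a ran from 0.00162 (no robust estimation, edgeR) to 0.133 (limma-voom).

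Cd8b1 (ENSMUSG00000053044, chromosome 6, 71322788 to 71337494 on the plus strand), the neighbour of Cd8a, encodes the beta chain, which reaches the surface only with the alpha chain and marks conventional CD8 T cells. It read 32.2, 38.5, 23.0, 33.1, 101, 97.1 and 84.1 CPM in deficient libraries 1 to 7, against 7.59, 7.05 and 14.9 CPM in the controls. The same 3 deficient libraries were highest, library 3 was the lowest deficient one for both chains, and control library 3 was the highest control for both. The means were 58.4 ± 34.0 CPM (SD, n = 7) and 9.83 ± 4.36 CPM (SD, n = 3). For Cd8b1 the log2 fold change was 2.55 (SE 0.595, adjusted p = 0.00770, edgeR). Cd8b1 did not pass within batch 1 (2.55, adjusted p = 0.0604, edgeR). Within batch 2, with 1 control library and only deficient libraries 6 and 7, it was 2.55. Without deficient libraries 5 to 7 it was 2.04, with no p for the reason given for Cd8a. Without deficient library 5 it was 2.27, also with no p, as the batch term then took up the spread. Over the other alternatives, batch 2 alone left aside, the adjusted p of Cd8b1 ran from 1.58e-07 (DESeq2) to 0.0604 (batch 1, edgeR). Of the 1434 different stretches of 50 bases in its annotated transcripts, 90 also occur in transcripts of other genes, and how many of its reads fall there was not measured. Control libraries 1 and 2 held 44 Cd8b1 reads each.

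The 2 chains were not present in equal amounts. Per kilobase of annotated exon (RPKM, CPM divided by exon length in kilobases), Cd8a stood at 0.0900, 0.115, 0.0931, 0.114, 0.220, 0.214 and 0.171 of the level of Cd8b1 in deficient libraries 1 to 7, against 0, 0.0371 and 0.0425 in the controls. Every deficient library had a larger ratio than every control, and libraries 5, 6 and 7 had the largest. The exon lengths used, 3637 bases for Cd8a and 1483 bases for Cd8b1, join all annotated isoforms, so the ratio depends on which isoforms the cells make.

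Set against Cd4, the CD8 reads formed a larger share in every deficient library. Reads of Cd8a and Cd8b1 made up 10.2%, 13.1%, 6.67%, 11.3%, 33.0%, 31.1% and 28.6% of the reads of Cd4, Cd8a and Cd8b1 together in deficient libraries 1 to 7, against 1.06%, 1.04% and 2.21% in the controls. The lowest deficient share, in library 3, had a 95% Wilson interval of 5.83% to 7.62%, and the highest control share one of 1.83% to 2.66% (counting error only). The means were 19.1 ± 11.2% (SD, n = 7) and 1.43 ± 0.668% (SD, n = 3). Deficient libraries 1 to 4, with 6.67% to 13.1%, also lay above every control. This is a share of reads and not of cells.

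**Figure D2:**
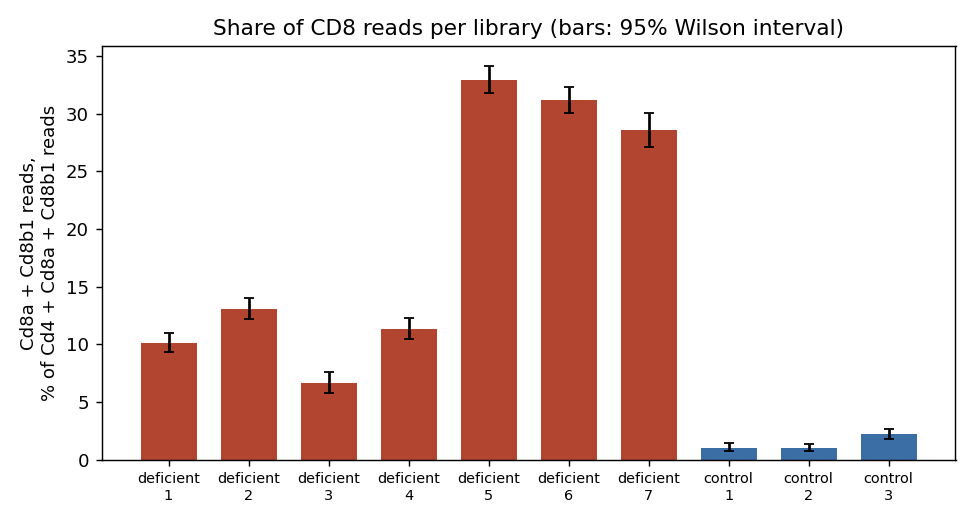
Reads of Cd8a and Cd8b1 as a percent of the reads of Cd4, Cd8a and Cd8b1 (vertical axis) in each library (horizontal axis, deficient in red and control in blue); error bars are 95% Wilson intervals. The share is 6.67% to 13.1% in deficient libraries 1 to 4, 28.6% to 33.0% in deficient libraries 5 to 7 and 1.04% to 2.21% in the controls.

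Several lists of markers of other cells were higher where the CD8 genes were. Of 14 CD8 T and cytotoxic markers, 13 were tested, 10 rose, 1 fell and 2 did not pass, with a median log2 fold change of 2.86. That is 84.6% called, against 58.0% of all genes tested. Among the 10, Ccl5 had 5 reads in all controls together and passed the low-count filter through the deficient libraries alone. Without deficient libraries 5 to 7, 9 of 12 tested rose and 1 fell, 83.3% called against 56.4% of all genes tested in that fit. The list summed to 955 to 1310 CPM in deficient libraries 1 to 4, 1695 to 2172 CPM in deficient libraries 5 to 7 and 384 to 483 CPM in control libraries. Gzmb, which encodes the cytotoxic protease granzyme B, read 847 ± 269 CPM against 73.5 ± 32.1 CPM, and the granule gene Nkg7 read 102 ± 44.4 CPM against 3.98 ± 0.846 CPM. In deficient libraries 1 to 4 Gzmb read 457 to 773 CPM and Nkg7 55.5 to 80.8 CPM, above all controls. Crtam, a surface receptor of activated cytotoxic cells, rose by 3.58 (SE 0.217), whereas Cst7, a cystatin of cytotoxic granules, fell by 0.53 on the log2 scale. Eomes, a regulator of cytotoxic cells, did not pass and Gzmk was at 0.155 CPM or less. The sum was largest in deficient libraries 5, 6 and 7, at 2172, 1995 and 1695 CPM.

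The alpha chain alone is also found on some dendritic cells. In their list of 8 markers 5 were tested and 2 rose, Batf3 (17.8 to 25.1 CPM against 4.65 to 7.70 CPM) and Zbtb46 (10.4 to 16.0 CPM against 4.14 to 6.34 CPM), while Clec9a and Siglech had 0 reads in all deficient libraries and Xcr1 reached 0.235 CPM. The list had 40.0% of tested genes called, against 58.0% of all genes tested. It summed to 59.5 to 67.7 CPM in deficient libraries 1 to 4, 121 to 127 CPM in deficient libraries 5 to 7 and 34.0 to 51.2 CPM in control libraries. Irf8, which did not pass, made up most of this sum, at 25.0 to 92.4 CPM in deficient and 23.1 to 35.3 CPM in control libraries. Without deficient libraries 5 to 7 the median log2 fold change was 1.33, against 0.88 with them. The NK cell list had 4 of 6 higher, 66.7% called against 58.0% of all genes tested, and summed to 5.86 to 23.9 CPM against 1.92 to 4.80 CPM. Its member Ncr1 stood at 0.227 to 0.996 CPM against 0.517 to 2.01 CPM and did not pass, and Klra4 and Klra8, among the 4, had 0 reads in all controls and so passed the low-count filter through the deficient libraries alone. Klra8 lost its call in 4 of 21 alternatives and Tyrobp, also among the 4, in 9 of 23; without deficient libraries 5 to 7, 2 of 4 tested rose. B cell markers summed to 56.6 to 85.0 CPM in deficient libraries 1 to 4, 297 to 336 CPM in deficient libraries 5 to 7 and 16.2 to 107 CPM in the controls. Of 9 tested 2 rose, 22.2% called against 58.0% of all genes tested, with a median log2 fold change of 2.17. The 2 were Ighm and Cd79a. Cd79a had 4 reads in all controls together and passed the low-count filter through the deficient libraries alone. Without deficient libraries 5 to 7, the highest for these markers, the median was 2.11. Leaving these libraries out narrows the spread by construction, so no count of calls is given. Over all 10 libraries Ebf1 went the other way, at 1.38 ± 1.05 CPM in deficient and 2.76 ± 0.544 CPM in control libraries, and did not pass. Of the macrophage and monocyte markers 3 were tested and 66.7% called, against 58.0% of all genes tested. Cd68 fell, and Adgre1 rose but lost its call in 7 of 14 alternatives. Adgre1 had 6 reads in all controls together and passed the low-count filter through the deficient libraries alone. The list summed to 5.53 to 8.42 CPM against 15.7 to 17.8 CPM, mostly from Cd68, at 3.99 ± 0.709 CPM against 13.9 ± 0.753 CPM. Csf1r stood at 0.285 CPM or less. Without deficient libraries 5 to 7, 1 of 2 tested fell. Of the gamma-delta and innate-like list 3 of 6 symbols were in the annotation; they summed to 5.98 to 10.99 CPM against 1.08 to 3.45 CPM, and Trdc, the delta chain constant region, rose by 1.85 on the log2 scale, and by 1.74 without deficient libraries 5 to 7. This list ran the other way within the deficient group, at 6.54 to 10.99 CPM in libraries 1 to 4 and 5.98 to 6.92 CPM in libraries 5 to 7. The part of these cells in the CD8 and Cd4 results was not tested.

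**Figure D3:**
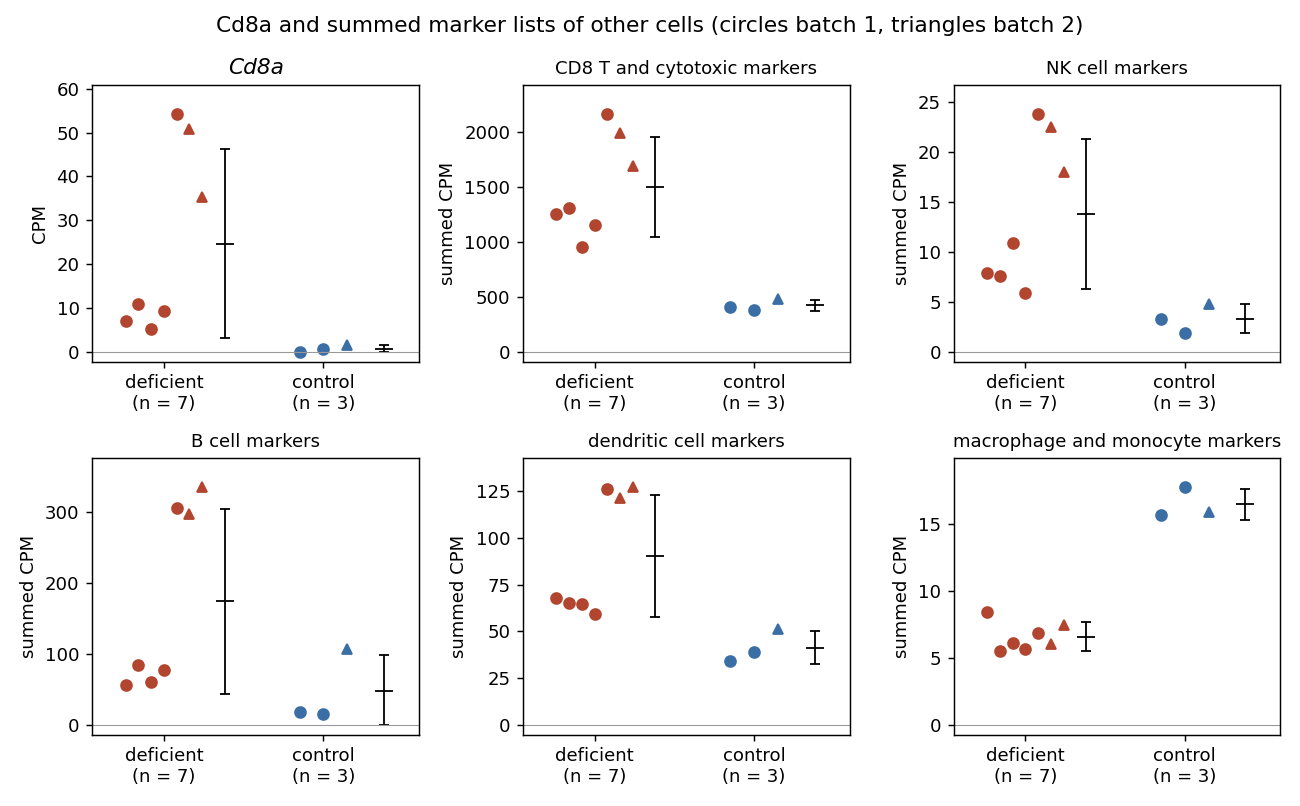
CPM of Cd8a and summed CPM of 5 marker lists in each library (vertical axes from 0; deficient in red, control in blue, circles batch 1, triangles batch 2, with mean and SD, the lower arm ending at 0 where the SD exceeds the mean). Deficient libraries 5, 6 and 7 are highest for Cd8a and for the CD8 T and cytotoxic, NK, B and dendritic cell lists, but not for the macrophage list. Most of the dendritic cell sum is Irf8, and most of the macrophage sum is Cd68.

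Zbtb7b (ENSMUSG00000028042, chromosome 3, 89377644 to 89394776 on the minus strand) encodes ThPOK. It read 118, 113, 113, 107, 120, 118 and 121 CPM in deficient libraries 1 to 7, against 105, 101 and 104 CPM in the controls. On library totals all deficient libraries lay above all controls, by a narrow margin; on TMM-scaled totals (TMM, a scaling that centres most genes) the groups overlapped, at 102 to 120 against 104 to 112 CPM. The log2 fold change was 0.08 (SE 0.0641, adjusted p = 0.301, edgeR), within the spread between libraries, and 0.06 within batch 1 and 0.14 within batch 2. It passed with plain library totals (0.17, adjusted p = 0.0345), and over the alternatives its adjusted p ran from 0.0345 to 0.679. Without deficient libraries 5 to 7 its log2 fold change was 0.04. Deficient libraries 5 to 7, where the CD8 genes were highest, had 118 to 121 CPM of Zbtb7b. Its exons overlap those of the antisense gene Gm15417 over 116 bases, and without the strand setting of the counting that part is uncertain.

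Runx1 (ENSMUSG00000022952, chromosome 16, 92601466 to 92826149 on the minus strand) encodes a DNA-binding Runx protein that silences Cd4 in immature thymocytes. It read 34.2, 31.0, 40.0, 29.1, 24.1, 20.6 and 29.3 CPM in deficient libraries 1 to 7, against 30.9, 32.5 and 31.9 CPM in the controls. The groups overlapped, with 2 deficient libraries above and 4 below all controls and libraries 5 and 6 the lowest. Its coefficient of variation was 21.3% over the deficient libraries and 2.67% over the controls, with means of 29.8 and 31.8 CPM. Runx1 did not pass (log2 fold change -0.21, SE 0.160, adjusted p = 0.284, edgeR). Its log2 fold change was -0.10 within batch 1, -0.44 within batch 2 and -0.02 without deficient libraries 5 to 7, and it passed under none of the 23 alternatives.

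Tox (ENSMUSG00000041272, chromosome 4, 6686353 to 6991557 on the minus strand) was the least abundant of the 4 transcription factor genes per kilobase. It read 3.71, 2.35, 1.71, 2.66, 0.801, 0.744 and 2.11 CPM in deficient libraries 1 to 7, against 3.28, 4.49 and 4.49 CPM in the controls. Libraries 5 and 6 were lowest with 10 reads each, and deficient library 1 lay above control library 1, so the groups overlapped. The log2 fold change was -1.15 (SE 0.417, adjusted p = 0.0308, edgeR). It was -0.86 within batch 1, where it did not pass (adjusted p = 0.145, edgeR), and -1.83 within batch 2, which holds 1 control library. Tox also failed to pass without control library 2 (-1.17), control library 3 (-0.86), deficient library 3 (-1.10) or deficient library 6 (-0.93). It failed too without deficient libraries 5 to 7 (-0.63), but 5 and 6 were its lowest libraries, so leaving them out raises the deficient mean. Over the alternatives the adjusted p of Tox ran from 0.00155 to 0.176.

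Bcl11b (ENSMUSG00000048251, chromosome 12, 107910403 to 108003602 on the minus strand) read 87.7, 90.4, 85.5, 98.4, 78.5, 83.6 and 90.1 CPM in deficient libraries 1 to 7, against 92.2, 93.3 and 95.2 CPM in the controls. Deficient library 4 was the highest of all and the other 6 lay below every control; on TMM-scaled totals all 7 did, at 76.9 to 93.2 against 96.8 to 98.2 CPM. The log2 fold change was -0.18 (SE 0.0677, adjusted p = 0.0333, edgeR), a level 1.13-fold lower. The value was -0.093 with plain library totals (adjusted p = 0.292), -0.070 with no low-count filter (adjusted p = 0.636), -0.16 with upper quartile scaling (adjusted p = 0.0571) and -0.18 with DESeq2 (adjusted p = 0.0529), and Bcl11b passed in none of these; over all alternatives its adjusted p ran from 0.0195 to 0.636. The call was lost too when any control was left out (-0.17 without control 1, -0.19 without control 2 and -0.17 without control 3), without deficient library 3 (-0.16) or 6 (-0.16), without deficient libraries 5 to 7 (-0.13), or within either batch (-0.17 in batch 1 and -0.19 in batch 2).

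**Figure D4:**
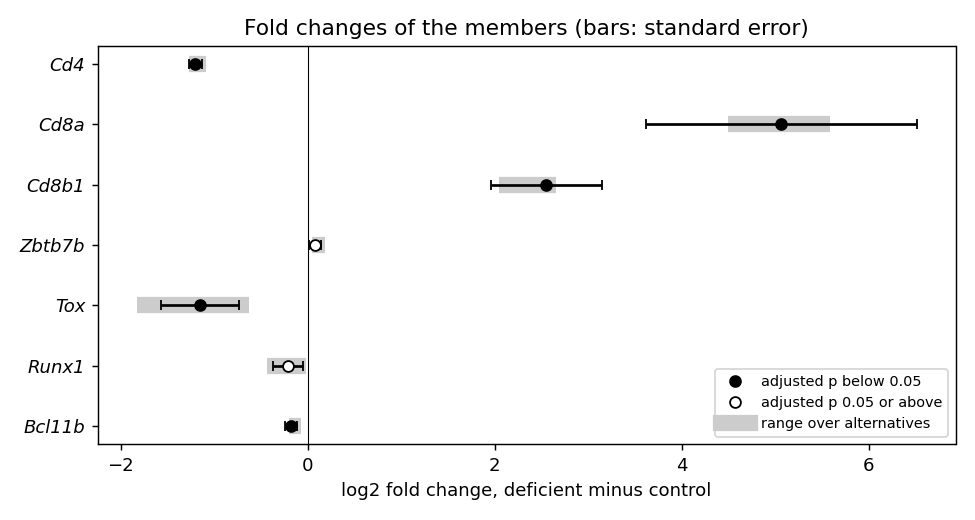
Log2 fold change (horizontal axis, deficient minus control) of the 7 genes with its standard error; filled points have an adjusted p below 0.05 (edgeR), and grey bands span the alternatives. Cd4 stays between -1.27 and -1.09, Cd8a between 4.50 and 5.59 and Cd8b1 between 2.04 and 2.66, while Zbtb7b, Runx1 and Bcl11b lie close to 0.

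The difference between the diets was not shown to differ between the batches. In a fit with the product of diet and batch, 0 of 13699 genes passed (565 had an unadjusted p below 0.05, edgeR's quasi-likelihood test; no other tool was run on the product), and the members' adjusted p lay between 0.947 and 1.00. Batch 2 had only 1 control library, so this test has little to go on.

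Ranked by level per kilobase, Cd4 was the highest of the 7 in both diets, at 83.0 ± 7.67 RPKM (SD, n = 7) in deficient and 179 ± 3.43 RPKM (SD, n = 3) in control cells. In deficient cells Cd8b1 (39.4 ± 22.9), Zbtb7b (20.7 ± 0.843), Bcl11b (10.8 ± 0.766), Cd8a (6.79 ± 5.93), Runx1 (2.48 ± 0.528) and Tox (0.264 ± 0.138 RPKM) followed. The ranges of Cd8b1 and Zbtb7b, of Bcl11b and Cd8a, and of Cd8a and Runx1 overlapped there. Among deficient libraries 1 to 4 alone, Cd8b1 (15.5 to 26.0) overlapped Zbtb7b (19.2 to 21.1), and Cd8a (1.45 to 2.98) lay below Bcl11b (10.5 to 12.1) and overlapped Runx1 (2.42 to 3.32 RPKM); in libraries 5 to 7 Cd8b1 (56.7 to 68.0) lay above Zbtb7b (21.1 to 21.6) and Cd8a (9.71 to 14.9) above Runx1 (1.71 to 2.44 RPKM). In control cells the order was Zbtb7b (18.5 ± 0.420), Bcl11b (11.5 ± 0.183), Cd8b1 (6.63 ± 2.94), Runx1 (2.64 ± 0.0706), Tox (0.537 ± 0.0920) and Cd8a (0.201 ± 0.214 RPKM), with no overlap between neighbours, although the lowest Tox value (0.430) and the highest Cd8a value (0.425 RPKM) all but met.

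Runx proteins bind the core TGTGGT, read on either strand as TGTGGT or ACCACA, and promoters of the members were searched for it because Runx1 is a member and Cd4, Cd8a and Zbtb7b are known Runx targets. Of the 7 members 4 had a promoter in the RefSeq table of GRCm38.p6, 6 windows in all, from 250 bases before to 50 after the start. A match occurred in 2 of these windows, and in 16.8% of all 32851 windows of the same length. The windows with a match, from Zbtb7b and Runx1, and that of Cd8a, the member with the largest fold change, are shown 5′ to 3′ with matches in capitals. No match says only that these letters are not in the window, and a match is not a bound site.
Cd8a, chr6:71373177-71373476, plus strand: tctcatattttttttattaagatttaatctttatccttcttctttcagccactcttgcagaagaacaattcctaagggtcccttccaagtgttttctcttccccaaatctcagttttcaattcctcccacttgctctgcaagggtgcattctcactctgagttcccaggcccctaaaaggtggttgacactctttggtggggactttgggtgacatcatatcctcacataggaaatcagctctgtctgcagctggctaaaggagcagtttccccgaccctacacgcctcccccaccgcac
Zbtb7b, chr3:89387622-89387921, minus strand: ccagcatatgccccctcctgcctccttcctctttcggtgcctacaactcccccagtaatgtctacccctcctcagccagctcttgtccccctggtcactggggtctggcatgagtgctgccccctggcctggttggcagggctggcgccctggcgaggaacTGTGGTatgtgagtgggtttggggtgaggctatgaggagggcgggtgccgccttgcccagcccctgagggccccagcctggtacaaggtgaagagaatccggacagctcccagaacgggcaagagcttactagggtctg
Runx1, chr16:92826025-92826324, minus strand: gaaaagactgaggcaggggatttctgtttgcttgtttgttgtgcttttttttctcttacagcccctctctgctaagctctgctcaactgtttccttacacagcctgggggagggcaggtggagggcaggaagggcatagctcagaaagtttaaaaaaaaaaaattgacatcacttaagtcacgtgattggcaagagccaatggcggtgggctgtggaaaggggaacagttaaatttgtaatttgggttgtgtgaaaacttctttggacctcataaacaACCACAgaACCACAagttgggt
The Zbtb7b window, at the downstream start of the gene, holds 1 match, at base 162 of the window, and the Runx1 window, at the upstream start, holds 2, at bases 279 and 287. The other windows of Zbtb7b and Runx1, and those of Cd8a and Bcl11b, hold none.

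Among the relatives and partners of the member transcription factors, the common partner of all Runx proteins differed most clearly. Of 9 such genes 6 were tested, 2 rose, 1 fell and 3 did not pass. The median log2 fold change was 0.30, against 0.02 over all genes. The share of this list called was smaller than the 58.0% of all genes tested. Without deficient libraries 5 to 7, 2 of 5 tested rose, 40.0% called against 56.4% of all genes tested in that fit. Cbfb, which encodes the beta subunit that Runx proteins need to bind DNA well, read 166 ± 19.7 CPM against 91.4 ± 5.37 CPM (log2 0.77, SE 0.0885, adjusted p = 2.93e-06, edgeR). Runx3, the Runx protein of CD8 T cells and TH1 cells, stood at 9.21 ± 1.09 against 9.43 ± 0.899 CPM and did not pass (log2 -0.12, adjusted p = 0.530, edgeR), nor did it under any of the 23 alternatives. Runx2 fell by 0.63 on the log2 scale, but did not pass within batch 1 (-0.55), without control library 1 (-0.54) or 3 (-0.55), or without deficient libraries 5 to 7 (-0.52). Zbtb7a, a close relative of Zbtb7b, rose by 0.50 and did not pass within batch 1 (0.41). Tox3 had 0 reads in every library, and Tox2 stood at 0.774 CPM or less.

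Other regulators of the CD4 and CD8 choice went both ways. Of 20 tested, 9 fell, 5 rose and 6 did not pass, with a median log2 fold change of -0.15. That is 70.0% called, against 58.0% of all genes tested. Cbfb and Runx3 are in this list too, and the counts were the same without deficient libraries 5 to 7. Hdac1, a histone deacetylase that keeps CD8 genes silent in CD4 T cells, read 72.4 ± 3.59 CPM against 36.0 ± 3.45 CPM (log2 0.93). Patz1, the zinc finger protein MAZR that represses Cd8 in thymocytes, read 24.1 ± 2.18 CPM against 34.4 ± 3.45 CPM (log2 -0.61). Gata3, which acts upstream of Zbtb7b in the thymus and directs TH2 cells, fell by 0.84. Lef1, needed with its relative Tcf7 for CD4 T cells to form, fell by 0.59, and Ikzf1, which encodes Ikaros, by 0.55 on the log2 scale.

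**Figure D5:**
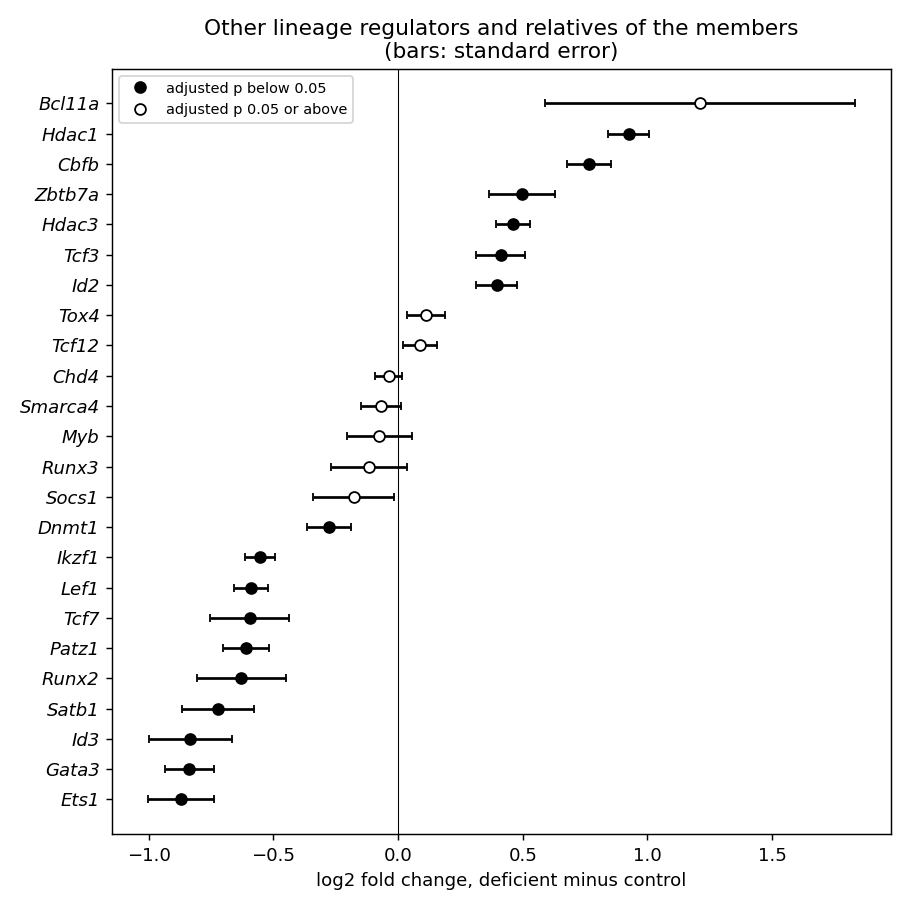
Log2 fold change (horizontal axis, deficient minus control) with its standard error for the tested genes of the lists of lineage regulators and of relatives and partners of the members; filled points have an adjusted p below 0.05 (edgeR). Hdac1 (0.93) and Cbfb (0.77) lie highest among the genes that passed, and Gata3 (-0.84) is among the lowest.

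The genes whose pattern over the 10 libraries was most like that of a co-receptor gene were found by the mean absolute difference of centred log2(CPM + 0.5). For Cd8a these were Ifng, at a mean difference of 0.45, S100a6 at 0.48, Iigp1 at 0.53 and Gbp6 at 0.56, where the median over 12523 genes was 1.76. Iigp1 had 2 reads and Gbp6 3 reads in all controls together, so both passed the low-count filter through the deficient libraries alone. Ifng, which encodes interferon-gamma, read 36.8 to 198 CPM in deficient and 2.24 to 7.58 CPM in control libraries. Cd8b1, with a smaller fold change than Cd8a, ranked 29th of the 12523, at 0.72. For Cd4 they were Crat and Oxa1l, both at 0.06, Tbrg1 and Rgs2, both at 0.08, where the median was 0.53. Tbrg1 read 98.7 ± 2.11 CPM in deficient and 220 ± 3.23 CPM in control cells. Among the other members, Tox and Bcl11b lay nearest to Cd4, each at 0.43, at ranks 4071 and 4073.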

How the data were processed

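Per the labels' protocols, total RNA was made into libraries with a stranded TruSeq globin kit. The values deposited by the authors are raw counts, with genes given by Ensembl ID and 1 column for each library. STAR 2.7.10a, HTSeq 0.13.5 and GRCm38 are named in the submitters' processing notes. How strand was counted, and with which annotation, is not given in the sources used here. IDs were matched to GENCODE M21 (GRCm38): 49412 of 49671 matched, and the rest held 0.0226% of counts.

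Levels are CPM on column totals; RPKM divides by joined exon length. Counts were fitted in R 4.3.3 with edgeR 4.0.16 (filterByExpr, minimum count 10; TMM; glmQLFit, robust; diet and batch as terms; all 10 libraries), with Benjamini-Hochberg adjustment over 13699 genes. Shallower control libraries limit the precision of low genes. Alternatives were other scalings, filters of 0 and 50 counts, DESeq2 1.42.0, limma-voom (limma 3.58.1), no robust estimation, no batch term, each batch alone and each library left out; after the data were seen, fits without deficient libraries 5 to 7 and on counts thinned to the shallowest library were added. The steps were tested on simulated counts.

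The members and lists were chosen with earlier results of these data known. Named genes are the members, up to 4 per list past the threshold by smallest p, and the 4 most like Cd8a and Cd4; Runx3, Patz1, Gzmb, Nkg7, Eomes and other list genes named beyond these were chosen after their values were seen. Figures were drawn with matplotlib 3.10.9.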

Additional observations from a re-analysis of the deposited data

Results flagged for a closer look

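Zbtb46, counted among the dendritic cell markers, stood at 16.0 CPM in deficient library 7, apart from the other 6 deficient libraries. It was 1 of 49 genes examined for such a gap, and chance sets about 1 in 20 groups apart.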

How the results depend on the processing

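The counts of genes called stayed within 1.5 times of 4032 higher and 3915 lower, at 3432 to 4107 higher, 3341 to 3988 lower and 6811 to 8095 in all when 1 library was left out, and 0 of the members changed direction. No paired analysis was possible because replicate numbers follow accession order and the labels pair no libraries. Leaving out 1 library gave log2 fold changes of -1.23 to -1.16 for Cd4, 4.67 to 5.59 for Cd8a, 2.27 to 2.65 for Cd8b1, 0.06 to 0.13 for Zbtb7b, -1.36 to -0.86 for Tox, -0.26 to -0.10 for Runx1 and -0.20 to -0.15 for Bcl11b. Calls were lost for Cd8a with limma-voom (5.00) and within batch 1 (5.58), for Cd8b1 within batch 1 (2.55) and for Tox within batch 1 (-0.86) and without deficient libraries 5 to 7 (-0.63). Bcl11b lost its call with upper quartile scaling (-0.16), plain library totals (-0.093), no low-count filter (-0.070), DESeq2 (-0.18), in batch 1 (-0.17), in batch 2 (-0.19) and without deficient libraries 5 to 7 (-0.13); Zbtb7b gained one with plain library totals (0.17). The cause was not tested. Without the filter the median of all genes was 0.19, a shift of 0.18 on the log2 scale, and with plain library totals the shift was 0.09. On TMM-scaled totals the control means were 755 CPM for Cd4, 108 for Zbtb7b, 33.2 for Runx1 and 97.7 for Bcl11b. Tox was not tested at a minimum count of 50. Thinned to the shallowest library, Cd8a was 5.28, Cd8b1 2.60 and Tox -1.20 on the log2 scale, and all 3 passed. Tox rests on 163 reads in the deficient and 76 in the control libraries, and Cd8a on 14 reads in the controls.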
